A study of Mus musculus with 12 samples.

Results

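The major urinary protein (Mup) genes and the lipocalin gene Obp2a were followed through liver transcriptomes of obese mice given 4-hydroxyphenylacetic acid (4-HPAA), a small phenolic acid, or no compound. The members were all genes of the table whose symbol is Mup followed by a number, and Obp2a. They came to 18 of 13267 genes, 17 Mup genes and Obp2a, and they were chosen with their difference between these groups already known. Their differences between groups are therefore given as descriptions, without tests. All 12 mice were C57BL/6, had been made obese with steatotic livers by a high-fat diet, and carried a pellet under the skin for 6 weeks. The pellet held 4-HPAA in 6 mice and was the bare scaffold in the 6 control mice. The labels used here give no sex, age or pooling of the mice, and do not say that each sample is a separate mouse. P-values thus measure only the spread between these samples. Messenger RNA was sequenced from whole liver, and the values are read counts that the authors scaled per library and rounded, called values here.

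Major urinary proteins are small lipocalins, barrel-shaped carriers of hydrophobic molecules. In mice, hepatocytes make them, release them into the blood, and the kidney passes them into urine, where they hold volatile pheromones and act as scent signals. Their genes lie side by side in a cluster of near-identical copies, and in mouse liver most are more active in males, where growth hormone arrives in pulses that activate the transcription factor STAT5. Androgens, thyroid hormone and glucocorticoids also act on them. Obp2a, named as an odorant binding protein, is a lipocalin encoded on another chromosome.

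GENCODE M21 (GRCm38) has 22 Mup symbols within 2.19 Mb of chromosome 4, at chr4:59956804-62150863, and 17 had a row in the table. Mup4, Mup5, Mup6, Mup13 and Mup22 were not analysed here. Obp2a lies at chr2:25700043-25703326 on the plus strand, and the 17 Mup genes lie on the minus strand. Over the 136 pairs of Mup genes the coding sequences were 82.6 to 99.8% identical, with a median of 98.9%. Obp2a was 48.9 to 51.5% identical to them.

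Close copies share reads, and the start of the coding sequence shows how little separates them. The lines below give the coding part of exon 1 (GENCODE M21, GRCm38, 5′ to 3′), with capitals for bases that differ from Mup17 or that Mup17 lacks. They show Mup17, against which the others are set, the copies with the largest (Mup15) and smallest (Mup2 and Mup10) differences between groups, the most abundant shared copy (Mup7), and the members whose sequence stands apart. Mup17 lies at chr4:61595665-61595760, Mup15 at chr4:61439537-61439632, Mup2 at chr4:60139691-60139786, Mup10 at chr4:60581993-60582088 and Mup7 at chr4:60070205-60070300. Mup20 lies at chr4:62053951-62054049, Mup21 at chr4:62150654-62150752, Mup3 at chr4:62087124-62087231, all on the minus strand, and Obp2a at chr2:25700091-25700177 on the plus strand.
Mup17: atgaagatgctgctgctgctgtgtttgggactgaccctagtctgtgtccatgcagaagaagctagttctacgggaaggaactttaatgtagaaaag
Mup15: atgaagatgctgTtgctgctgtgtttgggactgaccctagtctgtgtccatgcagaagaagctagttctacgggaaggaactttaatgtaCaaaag
Mup2: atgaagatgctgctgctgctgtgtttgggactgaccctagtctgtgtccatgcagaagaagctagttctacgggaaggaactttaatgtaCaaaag
Mup10: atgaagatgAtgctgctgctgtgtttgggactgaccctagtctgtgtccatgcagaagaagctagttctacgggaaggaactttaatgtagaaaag
Mup7: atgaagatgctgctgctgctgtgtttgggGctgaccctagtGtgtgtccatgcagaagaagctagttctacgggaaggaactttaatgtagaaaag
Mup20: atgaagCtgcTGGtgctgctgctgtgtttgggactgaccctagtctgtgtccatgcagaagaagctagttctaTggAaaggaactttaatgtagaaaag
Mup21: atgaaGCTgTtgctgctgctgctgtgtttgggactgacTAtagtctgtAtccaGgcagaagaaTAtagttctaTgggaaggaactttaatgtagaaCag
Mup3: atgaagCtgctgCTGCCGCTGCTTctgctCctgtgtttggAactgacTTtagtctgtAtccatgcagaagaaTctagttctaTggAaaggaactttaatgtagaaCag
Obp2a: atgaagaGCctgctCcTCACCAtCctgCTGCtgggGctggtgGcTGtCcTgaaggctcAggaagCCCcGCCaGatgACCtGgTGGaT

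Mup2 and Mup10 each differed from Mup17 at 1 position in this stretch, and Mup15 and Mup7 at 2 positions. Mup9 matched Mup17 in full. Mup20 differed at 6 positions, Mup21 at 12 and Mup3 at 22, while Obp2a differed at 55 aligned positions, counting bases it lacks. Over whole transcripts, 61.6 to 100% of the 50-base stretches of 14 Mup genes also occurred in another family gene. These 14 genes are called the shared copies here. For Mup3, Mup20 and Mup21 the share was 4.66 to 19.1%, and for Obp2a it was 0%. How the authors' counting dealt with reads that match several copies has no statement in the sources used here, so the value of any single shared copy is uncertain. Sums over copies are given as well, though reads left uncounted would be missing from these too.

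The upstream regions of the copies were also alike. RefSeq promoter windows (GRCm38.p6) were found for 13 of the 18 members, 12 Mup genes and Obp2a. The 3 windows printed contrast a shared copy, a divergent Mup gene and Obp2a, and each runs 5′ to 3′ over the first 200 bases of its RefSeq window, upstream of the gene as GENCODE M21 annotates it. They lie at chr4:61595883-61596082 (Mup17) and chr4:62087368-62087567 (Mup3), both on the minus strand, and at chr2:25699824-25700023 (Obp2a) on the plus strand. Capitals mark matches on either strand to TTNNGNAA, a loose form of the motif bound by C/EBP factors.
Mup17: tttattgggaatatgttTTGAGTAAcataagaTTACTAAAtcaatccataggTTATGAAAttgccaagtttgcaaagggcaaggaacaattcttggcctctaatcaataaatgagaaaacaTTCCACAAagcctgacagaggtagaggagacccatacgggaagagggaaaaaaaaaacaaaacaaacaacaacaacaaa
Mup3: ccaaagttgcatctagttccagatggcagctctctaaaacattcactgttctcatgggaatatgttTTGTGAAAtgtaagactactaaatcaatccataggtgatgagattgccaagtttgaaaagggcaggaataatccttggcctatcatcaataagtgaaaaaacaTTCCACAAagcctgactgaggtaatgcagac
Obp2a: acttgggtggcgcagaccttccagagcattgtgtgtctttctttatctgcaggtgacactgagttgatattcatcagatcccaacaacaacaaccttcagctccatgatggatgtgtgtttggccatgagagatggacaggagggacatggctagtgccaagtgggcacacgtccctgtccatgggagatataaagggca

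Where their windows overlapped, the Mup17 and Mup15 promoters were 99.5% identical over 198 bases and those of Mup17 and Mup2 were 98.5% identical over 195 bases. Mup17 and Mup18, at 94.0% over 199 bases, were less alike there than in their coding sequences, at 98.7%. Mup17 and Mup3 were 85.5% identical over 152 bases. TTNNGNAA occurred in 12 of 12 Mup windows and not in that of Obp2a, and in 32.3% of 32851 RefSeq windows of this length. The STAT motif TTCNNNGAA occurred in 0 of the 12 Mup windows and 5.76% of all windows. The steroid receptor motif ACANNNTGT occurred in 0 of 12 and in 4.79%. TATAAA occurred in 0 of 12, in the Obp2a window and in 9.14% of all. The bases between these windows and the RefSeq start were not searched. Matches closer to the start, TATAAA among them, would therefore be missed. Both strands were searched and the first motif may overlap the second. The Mup windows are copies of each other, so their matches are not independent. A match is not a bound site, and an absent match says nothing of the factor.

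The values, which the authors had already scaled, summed to 24602634 to 25255413 in the 4-HPAA group and 22869813 to 25255447 in controls. The reads behind them are not given, so these totals do not show the sequencing depth. Albumin took 4.98 to 7.58% of a library in 4-HPAA livers and 7.59 to 8.72% in control livers. Of 10 hepatocyte markers 9 were in the table, and their sum ran from 2221129 to 2875970 in 4-HPAA livers and from 2553522 to 3105217 in controls. Marker sums of other cell types overlapped between the groups, among them stellate cells (7 of 7 markers, 3774 to 7309 against 6061 to 9124 in controls) and Kupffer cells and macrophages (8 of 8, 2644 to 4854 against 1836 to 8229 in controls). Of 5 adipocyte markers only Cfd was in the table, at 20 to 450 in 4-HPAA livers and 205 to 1133 in controls. 4-HPAA replicate 3 stood apart from the other 11 livers in some genes, with the Y-linked Ddx3y at 453 where the others had at least 1269. The part of these differences in the results was not tested. In whole liver, fewer cells of a type and less RNA per cell cannot be told apart.

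As a sum, the family was more abundant in 4-HPAA livers, and the groups overlapped. The sum over the 18 genes ran from 427987 to 780041 in 4-HPAA livers, with a median of 587286.5. In control livers it ran from 168035 to 585921, with a median of 339845. The 4-HPAA livers fell into a high set, replicates 1, 2 and 5, above every control, and a lower set, replicates 3, 4 and 6, within the control range. Among controls, replicates 4 and 5 were lowest and replicate 6 was highest. The means were 597805 ± 169336 in 4-HPAA livers and 345251 ± 158766 in controls (SD, n = 6 each), a ratio of 1.73. The log2 difference was 0.88 ± 0.33 (SE). Across leaving out each liver in turn it stayed between 0.70 and 1.06. The family made up 1.74 to 3.10% of all values in a 4-HPAA liver and 0.735 to 2.40% in a control liver.

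**Figure D1:**
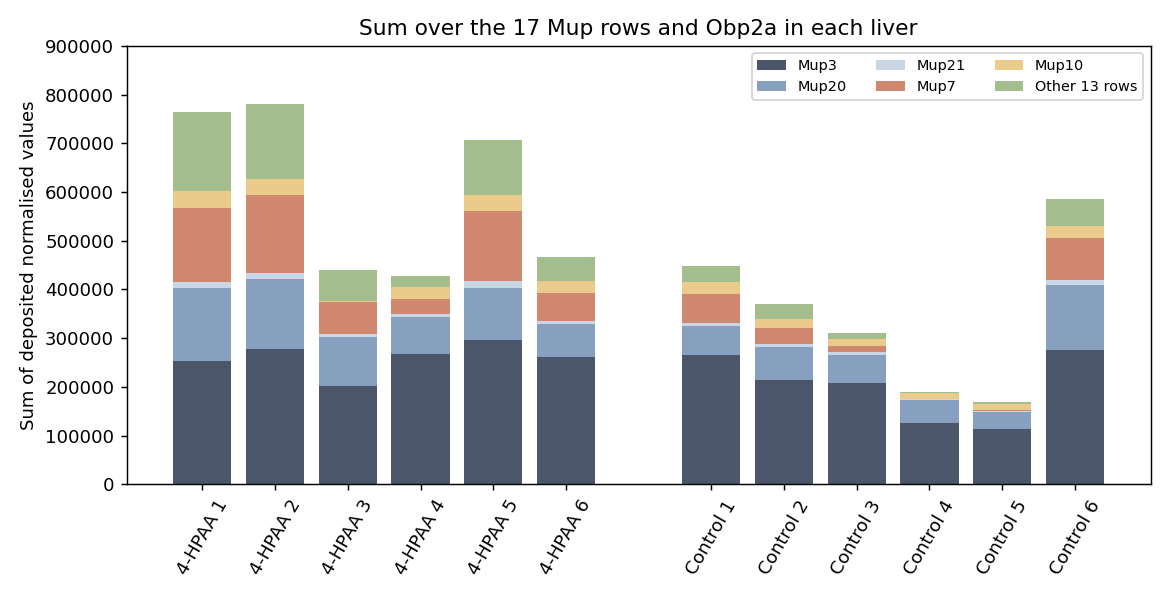
Sum of the deposited normalised values over the 18 genes in each liver, with the 6 4-HPAA livers left of the 6 controls. Mup3, Mup20, Mup21, Mup7 and Mup10 are stacked as separate segments, and the other genes are joined in a single segment. 4-HPAA replicates 1, 2 and 5 stand above every control, while the bars of the other 4-HPAA livers lie within the control range of 168035 to 585921.

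The shared copies and the divergent genes differed in how far the groups lay apart. The 14 shared copies together averaged 221249 ± 120855 in 4-HPAA livers and 72581 ± 60879 in controls, a ratio of 3.05 and a log2 difference of 1.94 ± 0.70 (SE). They ranged from 77694 to 348956 in 4-HPAA livers and from 14552 to 166792 in control livers. Mup3, Mup20 and Mup21 together averaged 376512 ± 52029 in 4-HPAA livers and 272661 ± 99494 in controls, a ratio of 1.38 and a log2 difference of 0.54 ± 0.24 (SE). The split into shared and divergent genes was made with the values known, and the contrast between the sums was not tested.

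Of the 18 genes, 17 had a higher mean log2 value in 4-HPAA livers, as did 49.8% of the 12720 genes tested. A log2 difference of at least 1 was seen in 13 of 18, against 0.605% of all genes tested. Groups that did not overlap, higher in 4-HPAA, were seen in 1 of 18, Obp2a, against 0.307% of all genes tested, and lower in 0 of 18, against 0.354%. All 18 passed the filter on low values. Obp2a passed it only through its 4-HPAA values, since most of its control values lay below 10. The median log2 difference of the 18 was 2.23, and that of all genes tested was -0.001. By limma with Benjamini-Hochberg adjustment, 0 of the 18 were called, as were 0% of all genes tested, while 924 genes lay higher and 962 lower at an unadjusted p under 0.05. Since the members were chosen on this contrast, nothing is read from these shares.

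**Figure D2:**
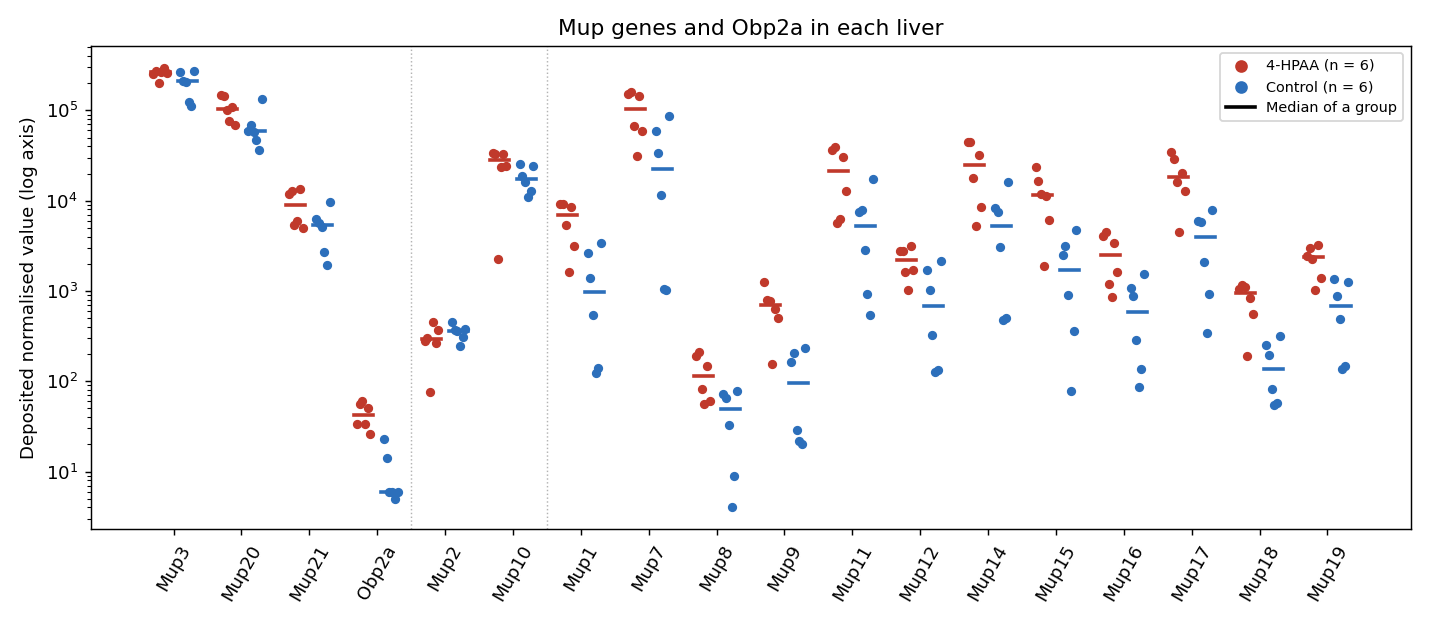
Deposited normalised value of each gene in each liver (log axis), 4-HPAA livers in red left of control livers in blue, with bars at the group medians. Obp2a is the gene whose groups do not overlap, and in the 12 shared copies other than Mup2 and Mup10 the 4-HPAA median lies above the control median, at log2 differences of 1.90 to 3.21.

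Mup3 was the most abundant row of the family per unit of exon length. Its values ran from 201865 to 295751 in 4-HPAA livers, with a median of 264040.5, and from 112599 to 275499 in controls, with a median of 211013.5. Only 2 of the 6 4-HPAA livers exceeded the highest control, and the low end was held by control replicates 4 and 5. The log2 difference was 0.45 ± 0.21 (SE). Per kb of exon and 1000000 values, Mup3 averaged 9744 ± 1139 in 4-HPAA livers and 7621 ± 2459 in controls (SD, n = 6 each). It held 45.8% of the family sum in 4-HPAA livers and 60.7% in controls, averaged over the livers.

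Mup20 encodes darcin, a male urinary pheromone that attracts females. It ran from 69099 to 149006 in 4-HPAA livers, with a median of 104594.5, against 36393 to 133976 in control livers, with a median of 58708.5. The highest control, replicate 6, lay far from the next control at 68876, and the other 5 controls lay below every 4-HPAA liver. The log2 difference was 0.75 ± 0.28 (SE), and 0.98 without control replicate 6. Mup21, the gene at the end of the cluster, ran from 5003 to 13647 in 4-HPAA livers (median 8857.5) and from 1927 to 9648 in controls (median 5401.5), a log2 difference of 0.86 ± 0.40 (SE). Its groups overlapped over most of their range.

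Obp2a was the least abundant member and the one without overlap. Its values were 34, 56, 61, 34, 50 and 26 in 4-HPAA replicates 1 to 6, and 23, 14, 6, 6, 5 and 6 in control replicates 1 to 6. Every 4-HPAA liver lay above every control, but the closest pair, 4-HPAA replicate 6 at 26 and control replicate 1 at 23, were near each other. The ratio of the group means was 4.35, with a log2 difference of 2.16 ± 0.35 (SE). Across leaving out each liver in turn it lay between 2.03 and 2.43. Values this small carry a large counting error, and the log2(value + 1) scale understates the difference.

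Mup7 was the most abundant of the shared copies. It ran from 30881 to 160678 in 4-HPAA livers, with a median of 104629, and from 1024 to 86845 in controls, with a median of 22542. The controls spread 84.8-fold, the lowest being replicates 4 and 5, while 4-HPAA livers spread 5.20-fold. Its log2 difference was 2.93 ± 1.14 (SE), the largest standard error in the family, and ranged from 2.24 to 3.52 as each liver was left out. It held 16.0% of the family sum in 4-HPAA livers and 7.0% in controls.

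Mup17 ran from 4535 to 34883 in 4-HPAA livers, with a median of 18164, and from 341 to 7956 in controls, with a median of 3996.5. The 4-HPAA liver below the highest control was replicate 4. Its log2 difference was 2.77 ± 0.79 (SE). Mup15, which has 100% of its 50-base stretches in other copies, ran from 1887 to 23764 in 4-HPAA livers and from 78 to 4752 in controls, with medians of 11610 and, in controls, 1700. Its log2 difference of 3.21 ± 0.98 (SE) was the largest of the 18. In Mup9, Mup15, Mup17, Mup18 and Mup19, 5 of the 6 4-HPAA livers exceeded the highest control, and the exception each time was 4-HPAA replicate 4. Without that liver the number of members without overlap was 6, and without control replicate 6 it was 2.

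Mup1, a circulating member studied in mice for its link to glucose and lipid metabolism, ran from 1616 to 9301 in 4-HPAA livers and from 122 to 3380 in controls, a log2 difference of 2.90 ± 0.88 (SE). Mup11 and Mup14 had similar abundance, with medians of 21491.5 and 24918 in 4-HPAA livers and of 5181.5 and 5288.5 in controls. Their log2 differences were 2.29 ± 0.88 and 2.69 ± 0.96 (SE). The remaining 6 shared copies apart from Mup2 and Mup10, namely Mup8, Mup9, Mup12, Mup16, Mup18 and Mup19, had medians of 114 to 2532 in 4-HPAA livers and of 49 to 682 in controls. Their log2 differences ran from 1.90 ± 0.68 in Mup8 to 3.07 ± 0.73 in Mup9 (SE). The row for Mup9, like that for Mup10, carries the ID of a transcript with a retained intron.

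Mup2 and Mup10, copies as alike in sequence as the rest, had smaller differences than the other shared copies. Mup10 ran from 2236 to 33663 in 4-HPAA livers, with a median of 28452, and from 10896 to 25646 in controls, with a median of 17309. Its lowest value was that of 4-HPAA replicate 3, and the next 4-HPAA liver had 23444. The log2 difference was 0.14 ± 0.60 (SE), and without 4-HPAA replicate 3 it was 0.76. Mup2 ran from 76 to 457 in 4-HPAA livers, with a median of 293, and from 244 to 459 in controls, with a median of 362. The 76 was again 4-HPAA replicate 3. Its log2 difference was -0.43 ± 0.34 (SE), and -0.08 without that liver.

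**Figure D3:**
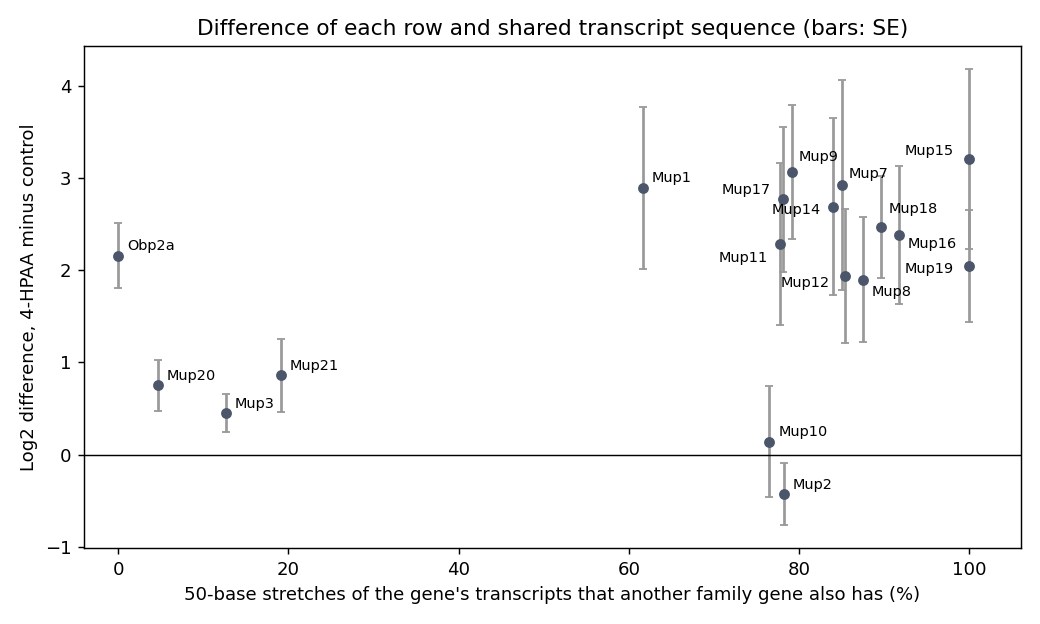
Log2 difference (4-HPAA minus control, points with SE bars) of each gene against the share of its 50-base transcript stretches that another family gene also has. Of the 14 genes above 60% on the horizontal axis, 12 lie between 1.90 and 3.21, Mup2 at -0.43 and Mup10 at 0.14. Mup3, Mup20 and Mup21 lie between 0.45 and 0.86.

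In order of mean level per kb of exon and 1000000 values, Mup3 was followed by Mup20, at 4660 ± 1384 in 4-HPAA livers and 2957 ± 1505 in controls. Mup7 came next, at 3949 ± 2148 and, in controls, 1257 ± 1371 (SD, n = 6 each). Mup20 and Mup7 lay within their spread of each other in 4-HPAA livers. In 4-HPAA livers, Mup17, Mup14, Mup10, Mup11, Mup21 and Mup15 followed at 514 to 845, each differing from the next by less than their SDs of 236 to 507. Below them were Mup1 at 156, Mup16 at 100, Mup12 at 93.5, Mup19 at 83.5, Mup18 at 35.1, Mup9 at 18.4, Mup2 at 8.76, Mup8 at 5.04 and Obp2a at 2.35. In control livers Mup10, at 529 ± 166, and Mup21, at 313 ± 163, stood above the other copies of that middle set, at 85.2 to 174. Exon length here covers all annotated transcripts of a gene together, 927 bases for Mup17 and 1382 to 1576 for Mup14, Mup10 and Mup11. By mean value without this scaling, Mup14, Mup10 and Mup11 lay above Mup17 in 4-HPAA livers. Reads that match several copies may have been divided between them or dropped, and either could also affect this order.

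Most of the Mup genes varied together from liver to liver once the group means were removed. The 12 shared copies other than Mup2 and Mup10 had pairwise Pearson correlations of log2 values between 0.80 and 0.99, with a median of 0.94 (12 livers; a description, since these copies share reads). Mup20 and Mup21 correlated with these 12 at 0.76 to 0.87 and 0.73 to 0.95, and Mup3 at 0.59 to 0.91. The part of shared reads in these correlations was not tested. Obp2a correlated with the 17 Mup genes at -0.13 to 0.65, with a median of 0.51. Mup10 correlated with the 12 at 0.10 to 0.60, and at 0.87 to 0.98 without 4-HPAA replicate 3, so its weak relation rested on that liver. Mup2 correlated with the 12 at -0.17 to 0.36, and at 0.04 to 0.38 without it. Mup2 and Mup10 correlated with each other at 0.89, which was 0.33 without 4-HPAA replicate 3.

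**Figure D4:**
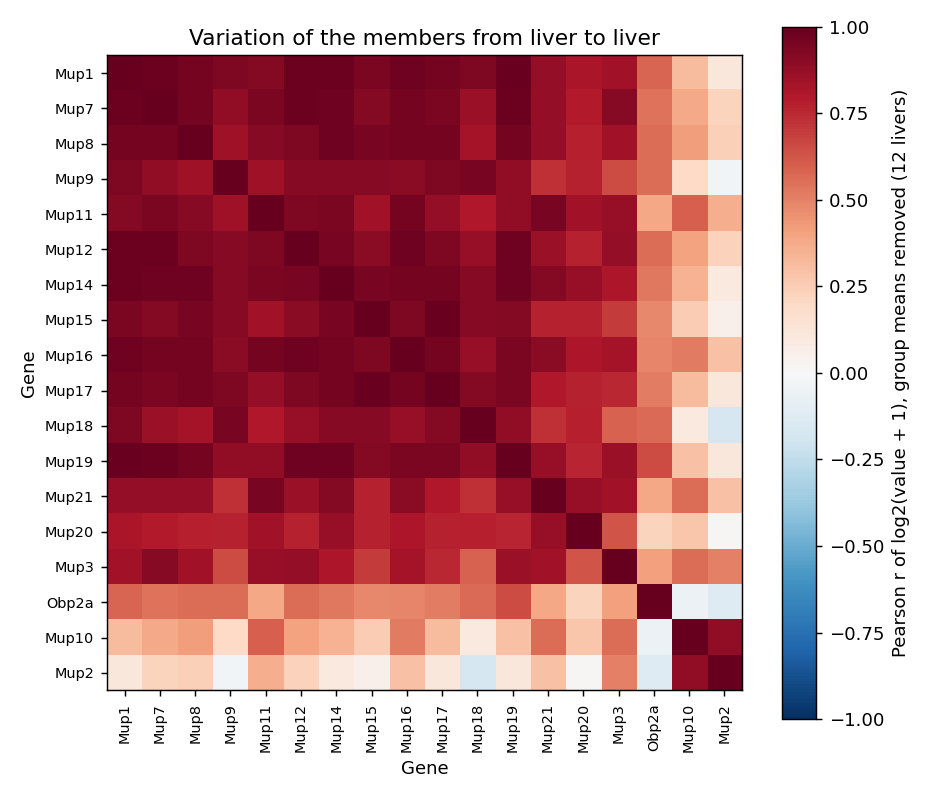
Pearson correlation between members over the 12 livers after removing each group's mean of log2(value + 1). The dark block of 12 copies lies between 0.80 and 0.99, while Obp2a, Mup10 and Mup2 form the pale margin.

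Control replicates 4 and 5 stood at the low end across the members. The lowest control was replicate 4 or 5 in 18 of 18 genes, and both were the lowest controls in 17. Control replicate 6 was the highest control in 14 of 18. 4-HPAA replicates 1, 2 and 5 were the highest 4-HPAA livers in 12 of 18.

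Growth hormone acts on these genes through its receptor, the kinase JAK2 and STAT5, with SOCS2 and CISH as feedback inhibitors and IGF1 as the main secreted product. Of 17 tested genes of this pathway 0 passed (limma, Benjamini-Hochberg), with 9 above and 8 below 0 and a median log2 difference of 0.01. The list mixes signal carriers, feedback inhibitors and secreted products, so this median does not measure the activity of the pathway. At an unadjusted p under 0.05 there were 3 higher and 2 lower. Over all 12720 genes tested there were 924 higher and 962 lower, the background for this and the later list counts. The receptor gene Ghr averaged 15946 ± 3209 in 4-HPAA livers and 15802 ± 1532 in controls, and Igf1 14871 ± 2762 in 4-HPAA livers and 14982 ± 2686 in controls (SD, n = 6 each). Their log2 differences were -0.01 ± 0.14 and -0.02 ± 0.15 (SE), and Jak2 had -0.04 ± 0.12. Stat5b, the STAT5 form that predominates in liver, had 0.17 ± 0.09 and Stat5a 0.09 ± 0.15. Cish ran from 104 to 2402 in 4-HPAA livers and from 194 to 1146 in controls, and Socs2 from 50 to 671 and, in controls, from 144 to 515, so both spread too widely to place their differences of -0.65 ± 0.79 and -0.49 ± 0.65. Igfals, whose product holds IGF1 in blood, had 0.25 ± 0.11. The 4 genes of smallest p were Stat3 at 0.44 ± 0.14, Prlr at -0.55 ± 0.17, Socs3 at 1.11 ± 0.37 and Igfbp3 at -0.82 ± 0.30, with adjusted p of 0.200 to 0.238 by limma. Without 4-HPAA replicate 4, Stat3 (adjusted p = 0.0304, limma) and Igfbp3 (adjusted p = 0.0455, limma) passed. Without that liver, which had the lowest family sum of the 4-HPAA group, limma called 100 genes higher and 93 lower over all genes. These counts are the background for the later results without it.

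Other genes known to be more active in male than in female mouse liver lay above 0. Of 21 tested, 21 had a positive log2 difference, with a median of 0.84, and 0 passed (limma, Benjamini-Hochberg), while 15 had an unadjusted p under 0.05. Gstp1, a glutathione transferase, ran from 17883 to 51432 in 4-HPAA livers and from 8366 to 16981 in controls, without overlap, at a log2 difference of 1.40 ± 0.24 (SE; limma, adjusted p = 0.103). Ugt2b38, a glucuronosyltransferase, had 2.52 ± 0.66 (adjusted p = 0.161), and C8a and C6, of the terminal complement pathway, 0.78 ± 0.21 and 1.11 ± 0.30 (adjusted p = 0.164 and 0.166, limma). Without 4-HPAA replicate 4 these 4 passed, at adjusted p of 0.0154 to 0.0456 by limma, and with no other liver left out. It was the lowest 4-HPAA liver in each of these 4, so leaving it out widens their differences. Over all genes, 100 were then called higher and 93 lower. Gstp1 and Ugt2b38 have close copies in the genome, as Mup genes do, and their reads may be split.

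Genes known to be more active in female mouse liver lay mostly below 0. Of 17 tested, 15 had a lower mean log2 value in 4-HPAA livers, with a median difference of -0.58. None passed (limma, Benjamini-Hochberg, 0 of 17), and at an unadjusted p under 0.05 there were 9 lower and 1 higher, the cytokine receptor gene Lifr. Abcd2, a peroxisomal fatty acid transporter, ran from 135 to 905 in 4-HPAA livers and from 636 to 1367 in controls, at -1.85 ± 0.47 (adjusted p = 0.157, limma), and passed without 4-HPAA replicate 4 (-2.20, adjusted p = 0.0227, limma). Fmo2, a flavin monooxygenase, had -1.07 ± 0.34, Acot4, a peroxisomal thioesterase, -1.05 ± 0.35, and Tox, a DNA-binding protein, -0.57 ± 0.20, with adjusted p of 0.203 to 0.226 by limma. The Y-linked genes Ddx3y, Eif2s3y, Kdm5d and Uty had values in all 12 livers, the lowest being 116, and Xist had no row. By these genes the livers of both groups were male, although the labels give no sex.

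**Figure D5:**
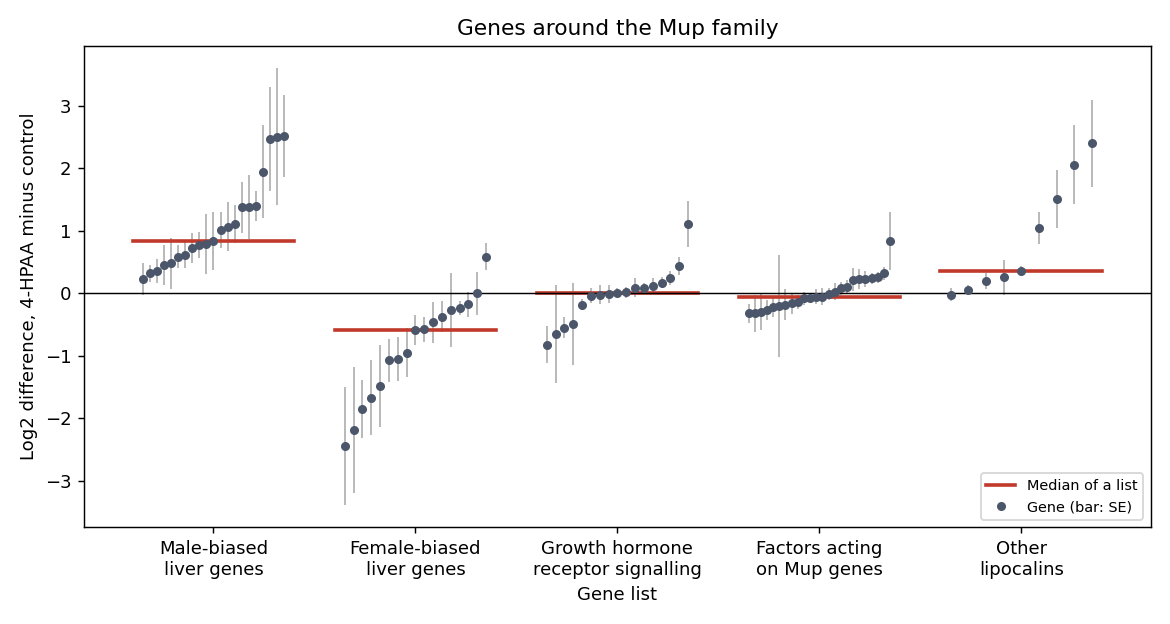
Log2 difference (4-HPAA minus control, points with SE bars) of each tested gene in 5 lists, sorted within a list, with the list median as a red line. The medians are 0.84 for male-biased genes, -0.58 for female-biased genes, 0.01 for growth hormone receptor signalling, -0.05 for factors acting on Mup genes and 0.36 for other lipocalins, and 0 of the genes passed after adjustment.

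Per liver, the average of the male-biased genes followed the family sum. Averaged as log2 values relative to the control mean, they stood at 1.60, 1.51 and 1.37 in 4-HPAA replicates 1, 2 and 5, the livers with the largest family sums, and at 0.24 to 1.23 in the other 4-HPAA livers. In control replicates 4 and 5, with the smallest sums, they stood at -0.46 and -1.04, and in control replicate 6 at 0.85. With group means removed, their correlation with the log2 family sum was 0.92 over the 12 livers, 0.82 within the 4-HPAA group and 0.98 within controls (n = 6 each, as a description). For the female-biased genes it was -0.59, with -0.66 in 4-HPAA livers and -0.73 in controls.

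Acute phase genes, which hepatocytes raise in inflammation, were also mostly above 0, in 21 of 22 tested with a median of 0.55 and 0 passing (limma, Benjamini-Hochberg; 17 at an unadjusted p under 0.05). They stood at 1.5, 1.53 and 1.16 in 4-HPAA replicates 1, 2 and 5, at 0.77, 0.22 and 0.15 in replicates 3, 4 and 6, and between -0.17 and 0.10 in controls. Their correlation with the family sum was 0.92 within the 4-HPAA group and -0.62 within controls (n = 6 each, as a description). The part of this response in the Mup differences was not tested.

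Of 24 tested transcription factors and nuclear receptors that act on Mup or other liver genes, 0 passed (limma, Benjamini-Hochberg), with 10 above and 14 below 0, a median of -0.05, and 3 higher and 0 lower at an unadjusted p under 0.05. They included the nuclear factor I genes Nfic at 0.26 ± 0.09 and Nfix at 0.24 ± 0.09, with adjusted p of 0.206 and 0.230 by limma. Zhx2, a zinc finger and homeobox factor known to act on Mup genes in mouse liver, averaged 438 ± 48.3 in 4-HPAA livers and 439 ± 37.8 in controls. The glucocorticoid receptor gene Nr3c1 had -0.05 ± 0.14 and the thyroid hormone receptor gene Thrb 0.11 ± 0.11. Bcl6, a repressor that competes with STAT5 in male liver, had 0.84 ± 0.47 (adjusted p = 0.430, limma). Of 5 other known targets of Zhx2, 0 passed, and 3 lay above and 2 below 0. Above 0 were Cyp7b1 at 1.38 ± 0.41 and Elovl3 at 0.45 ± 0.32, both also on the male-biased list, and Afp at 0.09 ± 0.13. Below 0 were Lpl at -0.26 ± 0.34 and the glypican gene Gpc3 at -1.09 ± 0.30. Gpc3 had the smallest p (adjusted p = 0.169, limma). The median of 0.09 thus does not describe a shared direction.

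Other lipocalins were mostly above 0 too, 8 of 9 tested with a median of 0.36, and 0 passed (limma, Benjamini-Hochberg; 5 at an unadjusted p under 0.05). Ambp, the precursor of alpha-1-microglobulin, ran from 57811 to 75749 in 4-HPAA livers and from 46293 to 54845 in controls, without overlap, at 0.36 ± 0.08 (adjusted p = 0.142). Orm1, an acid glycoprotein of plasma, had 1.05 ± 0.26, Orm3 1.51 ± 0.47, and the siderophore binder Lcn2 2.40 ± 0.70, with adjusted p of 0.148 to 0.199 by limma. Orm1, Orm2, Orm3 and Lcn2 are acute phase genes as well. Rbp4, the plasma retinol carrier, averaged 95316 ± 11151 in 4-HPAA livers and 96337 ± 10997 in controls (SD, n = 6 each). Ambp and Orm1 passed without 4-HPAA replicate 4 (adjusted p = 0.0310 for each, limma).

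Among 11186 genes with a mean value of at least 25, the 6 that varied most like the family sum within groups were Ccnl2, Gfra1, Lama3, Mlxipl, Tedc2 and C8b, at Pearson r of 0.92 to 0.96 and Spearman rho of 0.90 to 0.97 over the 12 livers. Mlxipl encodes the carbohydrate response factor ChREBP, and C8b a terminal complement component that is also on the male-biased list. The genes most opposite were Wfdc2 at -0.98, the lipid droplet gene Cidec at -0.96 and Psd4 at -0.95. Without control replicates 4 and 5, the livers farthest from the median of the log2 family sum, r was 0.85 to 0.95 for the 6 like genes and -0.95 to -0.89 for the 3 opposite ones. Cidec ran from 96 to 346 in 4-HPAA livers and from 161 to 1943 in controls, with control replicates 4 and 5 highest at 1739 and 1943. These genes were picked as the extremes of a ranking, so their r is no test.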

How the data were processed

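Poly(A) RNA of 12 livers was sequenced as directional libraries, per the labels' protocols. Per the submitters' processing notes, the build was GRCm38 and the tools included STAR, HTSeq, cutadapt, edgeR, DESeq2 1.28.1 and FastQC 0.11.9. Their roles, and how reads that match several genes were handled, were not stated in the sources used here. The deposited values are handled as a score, whole numbers that the authors scaled per library and rounded, so count tests were not used. The table has no value below 2. IDs were matched to GENCODE M21, which named 13203 of 13267.

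Values were analysed as log2(value + 1) by limma 3.58.1 (R 4.3.3; robust eBayes with a trend) over the 12720 genes that reached 10 in 6 or more libraries, with Benjamini-Hochberg adjustment at 0.05. Differences are 4-HPAA minus control. The fit was tested on simulated data with independently drawn genes and capped spread, which does not cover members that spread widely or vary together. Members, gene lists and the rule for named genes were chosen with earlier results of these data known; the rule takes every member, the 6 genes most like the family sum and the 3 most opposite, the 4 list genes of smallest p, and selected pathway genes. Rbp4, Lifr and the Y-linked genes were named after their values were seen. Some genes that the rule takes are not reported here. Between 2 libraries of a group, a chi-square that treats values as counts was at least 17.9 per gene. The values are scaled, so it does not measure sampling noise. Sequence was compared with Biopython 1.88 in Python 3.11.15 and figures drawn with matplotlib 3.10.9. Alternatives were other scalings, pseudocounts, filters, a replicate block and each library left out. How many reads lie behind a value is unknown, so no counting intervals are given.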

Additional observations from a re-analysis of the deposited data

Results flagged for a closer look

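Of 44 sets of 6 livers looked at, 2 held a liver far from the rest of its group; chance flags about 1 in 20. In Mup10, 4-HPAA replicate 3 was low at 2236, and the nearest 4-HPAA liver had 23444. In Mup20, control replicate 6 was high at 133976, and the nearest control had 68876.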

How the results depend on the processing

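The family sum had a log2 difference of 0.88, and 1.92 when log2 values were averaged over the 18 genes, which gives the low copies equal weight. Scalings, other pseudocounts and filters left 0 genes called. With the replicate number as a block, limma called 1 gene higher and 10 lower over all genes, and in the lists 1 higher (Orm3) and 1 lower (Igfbp3). The numbers were not taken to pair the livers, since correlations between same-numbered livers ran from -0.18 to 0.28.

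As each liver was left out, the family sum ranged from 0.70 to 1.06 and members without overlap from 1 to 6. Genes called higher numbered 0 to 100 and lower 0 to 93, the extremes without 4-HPAA replicate 4; without control replicate 1 they were 1 and 4. List calls were 0 to 11 higher and 0 to 2 lower. Small differences changed sign: Mup10 ranged from -0.03 to 0.76, Ghr from -0.05 to 0.13, Igf1 from -0.08 to 0.11, Jak2 from -0.11 to 0.06, Nr3c1 from -0.15 to 0.06, Stat5a from -0.03 to 0.17 and Zhx2 from -0.05 to 0.05. The cause was not tested.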

Other observations

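Genes within 1 Mb of the members, other than the members themselves, were looked at. Around the Mup cluster, 21 genes had log2 differences of -0.47 to 0.30, with a median of -0.03; 0 were called by limma and 1 had an unadjusted p under 0.05. Around Obp2a, 53 genes had -0.51 to 1.24, with a median of 0.07. Of these, 0 were called by limma and 13 had an unadjusted p under 0.05. Over all 12720 genes tested, 924 lay higher and 962 lower at that unadjusted threshold (limma). The 1.24 was Clic3, a chloride channel family gene (SE 0.56).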
